A study of Mus musculus with 40 samples.

Results

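Gfap, Aqp4, Slc1a2, Slc1a3, Aldh1l1, Gja1 and S100b, 7 genes widely used as markers of astrocytes, were followed by name through the read counts of mouse hypothalamus in 40 strains. They are 7 of the 23955 genes counted, all 7 were detected in every library, and all 7 passed the filter on low counts. Astrocytes are the glial cells that take up transmitter released at synapses, buffer potassium and water, and wrap blood vessels with their endfeet. Hypothalamic astrocytes are also known to respond to nutrients and hormones. Each of the 7 genes serves a different part of this work: Gfap and S100b belong to the cell's filaments and calcium-binding proteins, Slc1a2 and Slc1a3 take up glutamate, Aqp4 and Gja1 form channels, and Aldh1l1 is an enzyme of folate metabolism.

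The samples were 36 BXD lines, which are recombinant inbred lines bred from matings between C57BL/6J and DBA/2J, both of these parental strains, and the hybrids B6D2F1 and D2B6F1. All were untreated and sampled at a single time point, and the title of the study names hypothalamic Fgf15 as a regulator of glucagon secretion. There was 1 library per strain, made for BXD lines from a pool of RNA of 3 to 6 hypothalami. The spread between lines therefore includes genotype, animals, dissection and library, which cannot be told apart, and in bulk tissue fewer astrocytes and less RNA per astrocyte cannot be told apart either. Age and sex are not given in the sources used here.

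The libraries held 12.2 M to 40.4 M counts (median 23.6 M). BXD43 and BXD32 stood apart from the rest: their genes deviated from the panel's median by 0.219 and 0.211 log2 units (median absolute deviation over genes), against 0.127 for BXD63, the next library. Results that rest on these libraries are given with and without them, an alternative chosen after seeing the data. Libraries also differed in how gene levels followed base composition. This GC tilt, the correlation across 11262 genes between a gene's deviation in a library and the GC content of its longest coding transcript, ran among the BXD lines from -0.64 in BXD43 to 0.47 in BXD67, and stood at -0.53 in BXD32. The labels name no batch.

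The 300 bases around the transcription start of 3 members are shown because these genes stand at opposite ends of the range of variation described next: Gfap varied most between lines, and Slc1a3 and Gja1 least. Each runs from 250 bases before to 50 bases after the start and is written 5′ to 3′ on the gene's own strand, from RefSeq on GRCm38.p6. Capitals mark the only match among 3 motifs searched on both strands, TTCNNNGAA, which STAT factors bind. Gfap lies on the minus strand at chr11:102897151-102897450, Slc1a3 on the minus strand at chr15:8710758-8711057, and Gja1 on the plus strand at chr10:56377050-56377349.
Gfap: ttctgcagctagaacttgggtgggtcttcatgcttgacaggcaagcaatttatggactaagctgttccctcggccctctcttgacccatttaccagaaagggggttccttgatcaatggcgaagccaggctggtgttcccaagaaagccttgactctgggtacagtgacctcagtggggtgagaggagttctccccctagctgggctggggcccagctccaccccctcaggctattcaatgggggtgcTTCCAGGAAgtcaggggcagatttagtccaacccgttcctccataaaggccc
Slc1a3: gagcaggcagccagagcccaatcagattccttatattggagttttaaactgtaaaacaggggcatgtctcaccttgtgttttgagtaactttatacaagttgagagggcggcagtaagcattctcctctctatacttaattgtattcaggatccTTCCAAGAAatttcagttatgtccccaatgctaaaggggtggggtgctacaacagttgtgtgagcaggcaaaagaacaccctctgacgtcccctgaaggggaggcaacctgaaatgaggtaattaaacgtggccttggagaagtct
Gja1: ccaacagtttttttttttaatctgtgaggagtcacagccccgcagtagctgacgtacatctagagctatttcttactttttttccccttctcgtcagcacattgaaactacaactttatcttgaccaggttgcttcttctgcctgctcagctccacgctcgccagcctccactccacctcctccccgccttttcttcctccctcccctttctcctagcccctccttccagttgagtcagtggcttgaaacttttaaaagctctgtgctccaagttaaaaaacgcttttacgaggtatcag
The STAT pattern began at base 249 of the Gfap sequence and at base 155 of the Slc1a3 sequence, and it was present in 8.3% of 32851 mouse promoters of this length. TTGGC, the core of the site of NFI factors, which act in astrocyte development, was absent from these 3 windows and present in 46.7% of all promoters. AACAAT, bound by SOX factors, was absent from them too and present in 10.7%. Among the other 3 members whose promoters were searched, TTGGC occurred 4 times in S100b and 1 time in Slc1a2, and Aldh1l1 held none of the 3 motifs. The Aqp4 promoter was not used here.

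Expressed per length, the glutamate transporters were the most abundant of the 7 transcripts. Slc1a3 (GLAST) averaged 209.5 ± 18.1 CPM (counts scaled to library depth) per kilobase of the longest coding transcript (SD, n = 36 lines), and Slc1a2 (GLT-1) averaged 161 ± 19.3. Gja1, which encodes the gap junction protein connexin 43, stood at 102 ± 8.59 CPM per kilobase. S100b, a calcium-binding protein, stood at 93.5 ± 9.83, within the spread of Gja1. Gfap, the intermediate filament of astrocytes, stood at 75.6 ± 21.8, and its spread overlapped that of S100b. Aqp4, the water channel of the endfeet, had 35.2 ± 5.1 CPM per kilobase and Aldh1l1 16.7 ± 1.87. Divided instead by the length of all merged exons, Slc1a2 led with 142 CPM per kilobase before Slc1a3 with 102, Gja1 dropped to 31.5, below Gfap with 47.5, and Aldh1l1 remained lowest with 15.4, so the order in the upper part depends on which transcript is expressed.

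Gfap varied more between lines than any other of the 7. It ran from 97.7 CPM in BXD64 and 104.3 in BXD32 through a median of 186 CPM to 380.2 CPM in BXD70, a 3.89-fold range. Most lines lay close to a neighbour: the widest step between neighbours with at least 6 lines on either side was 0.15 log2 units, although BXD70 stood clear of the next line, BXD56 with 309.8 CPM, which was followed by BXD101 with 306.8, BXD83 with 281.5 and BXD50 with 271.2. The SD on the log2 scale was 0.405, where counting alone would give 0.022, and it exceeded that of 99.4% of genes of similar expression (2246 genes within 2-fold of its mean). Without BXD32 and BXD43 the SD was 0.386. The other members were not raised alongside in the line with most Gfap. BXD70 had 1637 CPM of Slc1a2, where the median line had 1859, 164.3 of Aqp4 (median 174), 302.5 of Gja1 (median 325) and 837 of Slc1a3 (median 853). Its Aldh1l1, 71.16 CPM, and S100b, 138.8 CPM, were close to the medians of 70.7 and 138. BXD64, with the lowest Gfap, had the highest Slc1a2, 2415 CPM.

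**Figure D1:**
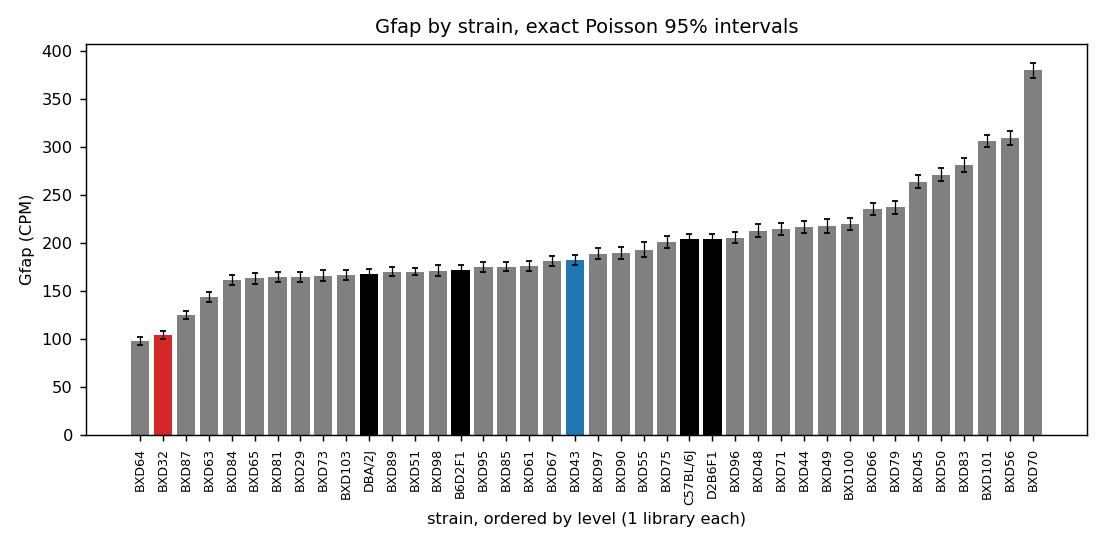
Gfap level in CPM (y axis, from 0) in each of the 40 strains (x axis, ordered by level), 1 library each, with exact Poisson 95% intervals that cover counting error only; black bars are parental strains and F1 hybrids, red is BXD32 and blue is BXD43. Levels run from 97.7 CPM in BXD64 to 380.2 CPM in BXD70, which stands clear of BXD56 with 309.8, and the parents and hybrids lie in the middle.

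Aqp4 had the next widest spread. It ran from 129.8 CPM in BXD67 through a median of 174 to 264 in BXD32, with an SD of 0.202 log2 units, above 92.7% of genes of similar expression. Its highest value without BXD32 and BXD43 was 223 CPM, in BXD49, and its SD 0.176. Slc1a2, which clears most of the glutamate at forebrain synapses, ran from 1397 CPM in BXD67 through 1859 to 2415 in BXD64, with an SD of 0.172 that was 0.17 without those libraries. BXD67, lowest for both genes, is the line with the highest GC tilt.

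The other glutamate transporter was among the least variable members. Slc1a3 ran from 758 CPM in BXD73 through 853 to 1123 in BXD43, and its SD of 0.12 log2 units fell to 0.104 without BXD32 and BXD43. Gja1 ran from 263 CPM in BXD85 through 325 to 415 in BXD32, with an SD of 0.119, or 0.0932 without these libraries. Both lay near the middle of genes of similar expression, at percentiles 58.2 and 58.1, and the median SD of all 12015 genes with at least 5 CPM was 0.134.

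S100b and Aldh1l1 owed much of their range to BXD32. S100b ran from 113 CPM in BXD81 through 138 to 204 in BXD32, and without BXD32 and BXD43 its highest value was 158. Its SD was 0.139 log2 units with and 0.103 without them. Aldh1l1, used as a marker across astrocyte types, ran from 44.5 CPM in BXD32 through 70.7 to 81.5 in BXD66, and without these libraries its lowest value was 57.2. Its SD fell from 0.175 to 0.126. BXD32 thus had the highest Aqp4, Gja1 and S100b of the panel, the lowest Aldh1l1 and the next to lowest Gfap.

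Markers of other cells also stood out in BXD32. Its summed choroid plexus markers (10 genes, led by Enpp2 and Prlr) reached 1897 CPM, where the next line had 503 and the median line 365. Its myelin markers (14 genes, Mbp the most abundant) were the highest at 8423 CPM, against a median of 5378, and BXD43 was lowest at 4270. Microglial markers (12 genes, 356 CPM against a median of 449.5) and ependymal markers (7 genes, 41.3 CPM against 56.3) were lowest in BXD32. Neuronal markers (14 genes, 10209 CPM against a median of 8915) were highest there. A list of 35 further astrocyte genes was lowest in BXD32, at 12465 CPM against a median of 14173, although Aqp4, Gja1 and S100b were highest. None of these genes was at 0 in any library. The part of these differences in the astrocyte values of BXD32 was not tested.

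**Figure D2:**
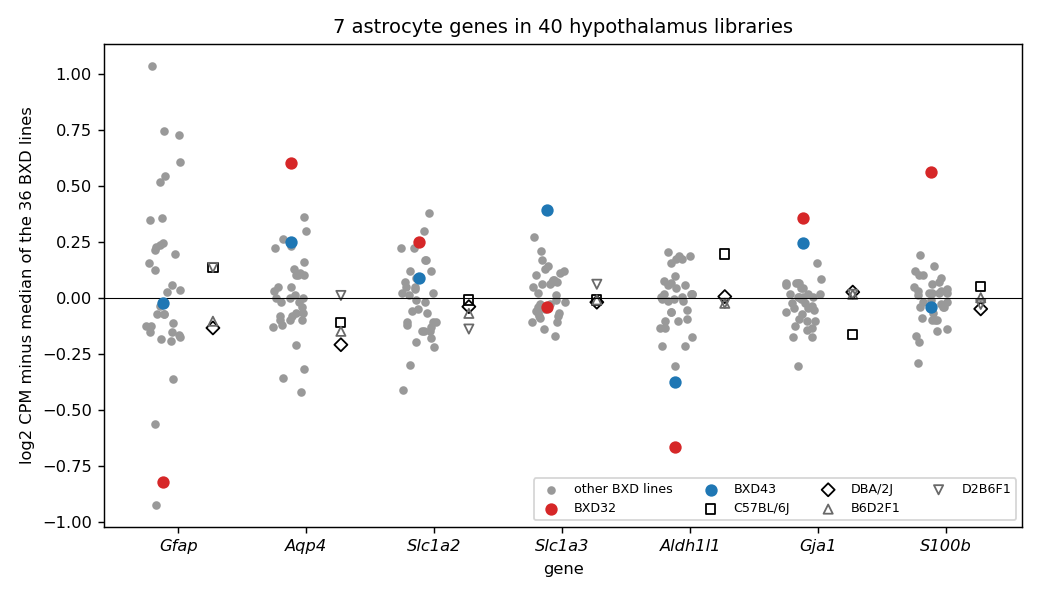
Level of each gene (x axis) in each library as log2 CPM minus the median of the 36 BXD lines (y axis); grey points are BXD lines, red is BXD32, blue is BXD43, and open symbols are parental strains and F1 hybrids. Gfap has the widest spread (SD 0.405), and BXD32 lies at the edge for Aqp4, Aldh1l1, Gja1 and S100b.

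The reads behind these values were many: from 885 for Aldh1l1 to 65715 for Slc1a2 in a single BXD library. Even so, few neighbours in the order of strains could be separated by counting. Of 39 neighbouring pairs of strains, exact Poisson 95% intervals did not overlap in 10 for Slc1a2, 7 for Gfap, 4 for Gja1, 2 each for Aqp4 and Slc1a3, and 1 each for Aldh1l1 and S100b. PCR copies could not be told from separate molecules, so these intervals cover the error of counting alone.

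To ask whether the 7 genes moved together from line to line, all 21 pairs were correlated on log2 CPM over the 36 lines. They did not form a single block. Of the 21 values of Pearson's r, 11 were positive and 10 negative, with a median of 0.019, and 4 pairs passed an adjusted permutation p of 0.05 (100000 permutations, two-sided, Benjamini-Hochberg over the 21 pairs). The glutamate transporters were an example of genes with little relation: Slc1a2 and Slc1a3 had r = 0.12 (rho 0.09, permutation p = 0.506, adjusted p = 0.559, r = 0.12 without the 2 lines farthest from the Slc1a2 median).

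Aqp4 and Gja1, both concentrated in astrocyte membranes at the endfeet, had the strongest relation. Lines with more of the water channel had more connexin 43, with r = 0.68 (permutation p = 2e-05, adjusted p = 0.00042, rho 0.61) and r = 0.62 without the 2 lines farthest from the Aqp4 median, BXD32 and BXD67. Only 0.0832% of 12014 genes had an r with Aqp4 at least this high. Without BXD32 and BXD43 r was 0.54 (permutation, adjusted p = 0.0233), and after a linear term for the GC tilt it was 0.52 (permutation, adjusted p = 0.0181). With both changes together r was 0.43 (permutation, adjusted p = 0.123), so the call was then lost.

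Slc1a2 took part in the other positive relations. It rose with Aqp4 (r = 0.45, rho 0.37, permutation p = 0.00557, adjusted p = 0.0358, r = 0.27 without the 2 farthest lines) and with Gja1 (r = 0.44, rho 0.41, permutation p = 0.00681, adjusted p = 0.0358, r = 0.46 without the 2 farthest lines). These values were 0.38 and 0.37 without BXD32 and BXD43, each with an adjusted permutation p of 0.124. After the GC tilt they were 0.25 and 0.22 (permutation, adjusted p = 0.438 and 0.473). Values of this size over the 36 lines were not rare among all genes. For the pair with Aqp4, 7.22% of genes had an r with Aqp4 at least as high, and 7.0% with Slc1a2. For the pair with Gja1 the shares were 7.68% with Slc1a2 and 12.9% with Gja1.

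The negative relation rested on 2 libraries. Aldh1l1 and Gja1 had r = -0.51 (permutation p = 0.00253, adjusted p = 0.0266), but rho was -0.12, and without BXD32 and BXD43, which are also the 2 lines farthest from the Aldh1l1 median, r was -0.097 (permutation, adjusted p = 0.765). Among all genes, 8.88% had an r with Aldh1l1 as low as -0.51 or lower over the 36 lines, and 15.2% had one with Gja1. In the plot of Aldh1l1 and Gja1, BXD32 and BXD43 have the highest Gja1 and the lowest Aldh1l1, and the other lines show no slope (r = -0.097). With only BXD32 left out, Slc1a3 was related to Gja1 (r = 0.51) and to Aldh1l1 (r = -0.49), each with an adjusted permutation p of 0.0179, and without BXD43 as well neither was (r = 0.36 and -0.34, adjusted p = 0.124 and 0.154).

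Gfap, the most variable member, passed the test with no other over the 36 lines. Its r with Aqp4 was 0.15 (rho 0.42, permutation p = 0.396, adjusted p = 0.52, r = 0.23 without the 2 farthest lines). BXD32 had the highest Aqp4 and the next to lowest Gfap. Without BXD32 and BXD43 r was 0.43 (permutation, adjusted p = 0.113), and with the GC tilt removed as well it was 0.59 (permutation, adjusted p = 0.00588). Its lowest r was with Slc1a2, -0.36 (rho -0.29, permutation p = 0.0328, adjusted p = 0.0984, r = -0.18 without the 2 farthest lines).

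**Figure D3:**
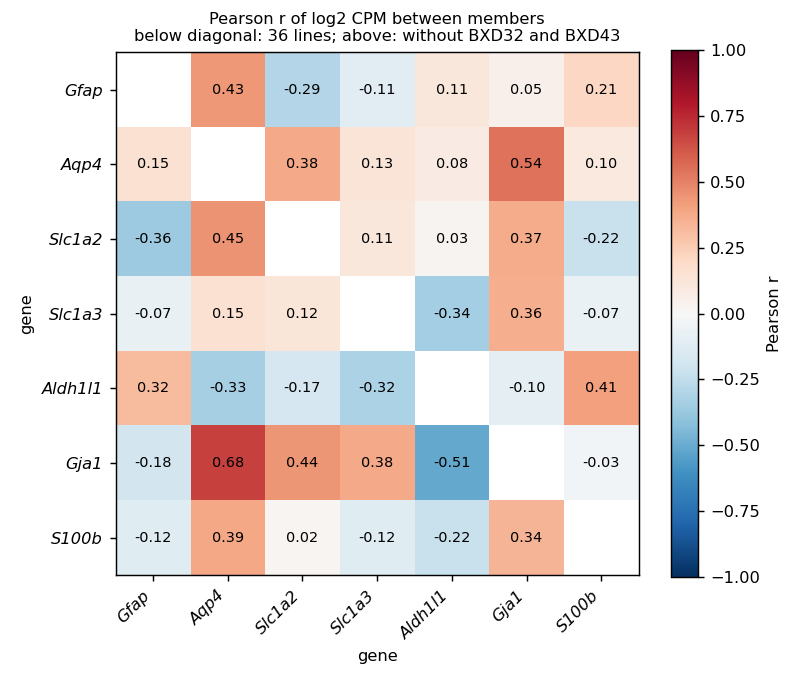
Pearson's r of log2 CPM for each pair of the 7 genes (both axes list the genes, colour from blue at -1 to red at 1), over 36 BXD lines below the diagonal and without BXD32 and BXD43 above it. Aqp4 with Gja1 is the highest in both parts (0.68 and 0.54), and Aldh1l1 with Gja1 goes from -0.51 to -0.10.

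**Figure D4:**
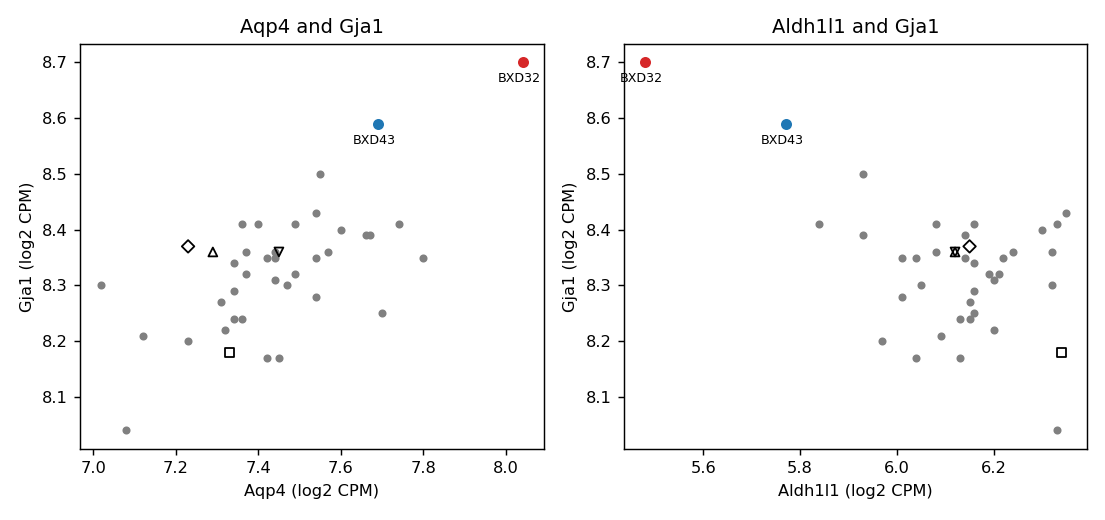
Gja1 (y axis, log2 CPM) against Aqp4 (left x axis, log2 CPM) and Aldh1l1 (right x axis, log2 CPM), 1 point per strain; red is BXD32, blue is BXD43, grey points are other BXD lines and open symbols are parents and F1 hybrids (square C57BL/6J, diamond DBA/2J, upward triangle B6D2F1, downward triangle D2B6F1). The rise of Gja1 with Aqp4 is visible among the grey points, and the fall with Aldh1l1 is not.

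Of the 7 genes, 5 moved with the GC tilt of the library. The tilt is itself computed from gene levels and GC content, over 11262 genes. The share of all genes that would pass this test was not computed, so the count is not shown to be particular to astrocyte genes. Gja1 (r = -0.59, rho -0.46, permutation p = 0.00013, adjusted p = 0.00091 over 7 relations), Aqp4 (r = -0.57, rho -0.50, permutation p = 0.00027, adjusted p = 0.000945) and Slc1a2 (r = -0.49, rho -0.44, permutation p = 0.00245, adjusted p = 0.00429) were lower in libraries tilted to GC-rich genes. Aldh1l1 was higher there (r = 0.55, rho 0.40, permutation p = 0.00044, adjusted p = 0.00103). Without the 2 libraries farthest from the median tilt these 4 values were -0.48, -0.56, -0.48 and 0.45. Slc1a3 had r = -0.43 (rho -0.28, permutation p = 0.00848, adjusted p = 0.0119), which rested on those libraries (r = -0.14 without them). Gfap (r = 0.28, rho 0.18, permutation p = 0.0957, adjusted p = 0.112, r = 0.24 without those 2) and S100b (r = -0.064, rho 0.20, permutation p = 0.713, adjusted p = 0.713, r = -0.12) did not pass. The longest transcripts of Gfap and Aldh1l1 hold 55.5% and 54.4% GC, those of Aqp4, Gja1, Slc1a2, Slc1a3 and S100b 41.4%, 45.1%, 45.3%, 46.7% and 48.3%. The part of the tilt in the relations between members was not tested beyond the values given. With the library total no member passed the test: the strongest was Slc1a2 with r = -0.33 (rho -0.32, permutation p = 0.0493, adjusted p = 0.345 over 7 relations, r = -0.24 without the 2 farthest lines).

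**Figure D5:**
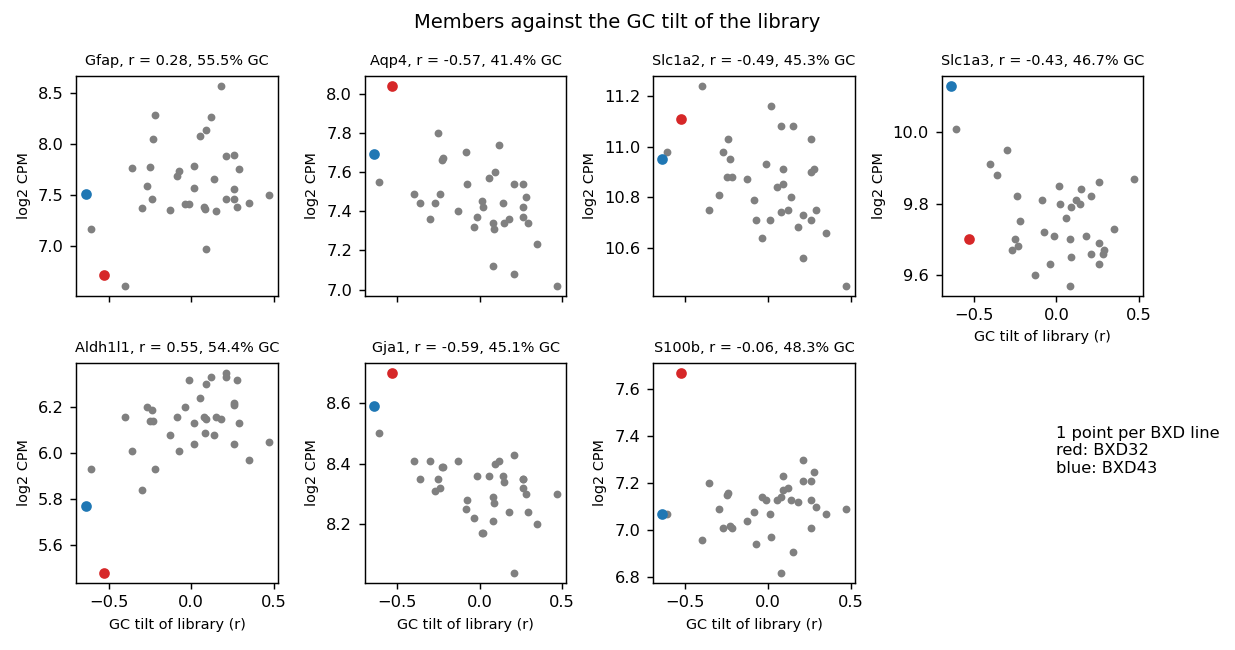
Level of each of the 7 genes (y axes, log2 CPM) against the GC tilt of the library (x axes, Pearson's r across genes), 1 point per BXD line, with BXD32 red and BXD43 blue; each title gives r over the 36 lines and the GC content of the gene's longest coding transcript. Aqp4, Slc1a2 and Gja1 fall and Aldh1l1 rises with the tilt, and S100b has r = -0.06.

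The members were then set beside other genes of astrocytes, to see which of them each followed. An r of at least 0.5 over the 36 lines was taken as alike, and the share of all 12014 genes reaching it differed widely: 0.841% for Gfap, 1.58% for S100b, 3.67% for Slc1a3, 4.37% for Aqp4, 4.61% for Slc1a2, 8.38% for Gja1 and 17.1% for Aldh1l1. These likenesses are descriptions over 36 libraries that share the GC tilt and BXD32, and carry no test.

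Aldh1l1 was the member whose pattern most other astrocyte genes shared. Of 35 further genes enriched in astrocytes, 19 were alike with Aldh1l1 and none reached -0.5, with a median r of 0.53 against 0.017 for all genes. They included Gpr37l1, a glial receptor (r = 0.77), Aldoc, the brain form of aldolase (0.74), Clu, the chaperone clusterin (0.73), and Apoe, the lipid carrier (0.71). Many of these likenesses depended on the libraries that stand apart or on the tilt: without BXD32 and BXD43, 3 of the 35 were alike with Aldh1l1, where 1.62% of all genes were, and after the GC tilt 6 were, where 4.69% of all genes were. Gja1 had 7 of the 35 at -0.5 or lower, among them Gpr37l1 (r = -0.64), Clu (-0.61) and Aldoc (-0.54). Values this low with Gja1 were common, in 1839 of 11266 genes with a known chromosome. Another 5 of the 35 were at 0.5 or higher with Gja1, where 8.38% of all genes were. They included Acsl3, a fatty acid activating enzyme (0.79), and Sparcl1, a secreted synapse-promoting protein (0.75).

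Gfap was alike with 4 of the 35, Ntsr2, a neurotensin receptor (r = 0.65), Lcat, which esterifies cholesterol (0.58), Id3, an inhibitor of transcription factors (0.55), and Clu (0.53). Aqp4 was alike with 5, among them Acsl3 (0.67), Sparcl1 (0.60) and the endothelin receptor Ednrb (0.52), and Slc1a2 with 3, Slco1c1, a thyroid hormone transporter (0.61), Dio2, which activates thyroid hormone (0.60), and Acsl3 (0.52). S100b was alike with 1, Pla2g7 (0.57), and Slc1a3 with none. At -0.5 or lower were 2 of the 35 with Aqp4, 1 each with Slc1a2 and Slc1a3, and none with Gfap and S100b. Of 11266 genes with a known chromosome, 1284, 400 and 477 were that low with Aqp4, Slc1a2 and Slc1a3. The median r of the 35 was -0.15 with Aqp4, -0.19 with Slc1a2 and -0.12 with Slc1a3, against -0.0075, -0.023 and 0.0055 for all genes. With Gfap it was 0.24 against 0.016, and with S100b -0.059 against -0.029. Sox9, a transcription factor of astrocytes, reached no more than 0.41, with Gfap. Without BXD32 and BXD43, 2 were alike with Gfap, 1 with Aqp4, 2 with Slc1a2, 3 with Gja1 and 0 with S100b and Slc1a3. In the order Gfap, Aqp4, Slc1a2, Gja1, S100b and Slc1a3, the shares of all genes were then 0.516%, 0.716%, 3.88%, 0.624%, 0.666% and 1.58%. After the GC tilt the counts in this order were 3, 1, 2, 4, 1 and 0. The shares of all genes after the tilt were 0.599%, 0.433%, 0.841%, 0.882%, 2.46% and 0.849%.

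Vim and Nes, which encode the filament proteins vimentin and nestin, were among 18 measured genes that act with the members. Vim had r = 0.58 with Gfap and no more than 0.36 with the other members. Nes had r = -0.10 with Gfap and 0.64 with Gja1. For the partners of Aqp4 in the endfoot complex, Dtna (dystrobrevin) had r = 0.60 with Aqp4, and the potassium channel Kcnj10 had 0.41. Glul, which turns the glutamate taken up by Slc1a2 and Slc1a3 into glutamine, had r = 0.15 and -0.28 with them, and the glutamine exporter Slc38a3 -0.21 and -0.63. Gjb6, the other astrocyte connexin, had r = 0.25 with Gja1 and 0.49 with Gfap. In counts, 1 of the 18 was alike with each of Gfap, Aqp4, Slc1a3 and S100b, none with Slc1a2, 3 with Aldh1l1 and 4 with Gja1. Of all genes, 17.1% were alike with Aldh1l1, 8.38% with Gja1 and from 0.841% to 4.61% with the other members. At -0.5 or lower were 3 of the 18 with Aldh1l1, 3 with Gja1, and 1 each with Gfap and Slc1a3. Of 11266 genes with a known chromosome, 1108 were that low with Aldh1l1, 1839 with Gja1, 133 with Gfap and 477 with Slc1a3. The number of the 18 alike with Gja1 was 1 without BXD32 and BXD43, where 0.624% of all genes were. After the GC tilt it was 1, where 0.882% of all genes were. The number alike with Aqp4 was 0 in both.

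Gfap is itself a marker of reactive astrocytes. Of 14 other reactive genes with at least 5 CPM, 1 was alike with it, Srgn (r = 0.62), where 0.841% of all genes were, with a median r of 0.32 against 0.016 for all genes. Serpina3n, a protease inhibitor raised in reactive astrocytes, averaged 71.0 CPM and had r = 0.22 with Gfap. Lcn2, another such marker, averaged 0.592 CPM, too low to rank. None of the 14 was alike with any other member.

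Over all genes, the closest to each member were mostly not astrocyte markers. For Gfap they were Senp3 (r = 0.66), Pml (0.65) and Trex1 (0.65), and at the other end Cds1 (-0.70), the sodium channel gene Scn1a (-0.65) and Pdhx (-0.64). These 6 kept an |r| of at least 0.58 without BXD32 and BXD43, which was not so for all genes named next. For Slc1a2 they were Itgav (0.76), Acap2 (0.75) and Pfkfb2 (0.75), and among those opposite it Celf6 (-0.71) and Hap1 (-0.70). For Slc1a3 they were Supt20 (0.77), Ralgps2 (0.74) and Casd1 (0.72), and opposite it Rhog (-0.79), Taldo1 (-0.78) and Frmd8 (-0.77). For Aqp4 they were Thumpd3 (0.74), E030003E18Rik (0.71) and Qk (0.71), opposite Strn4 (-0.73), Gna11 (-0.72) and Spns1 (-0.72). For Gja1 they were Acsl3 (0.79), Pik3r1 (0.77) and Calu (0.77), opposite Hexdc (-0.81), Bap1 (-0.79) and Gna11 (-0.79), so Gna11 stands opposite both channel genes. Aldh1l1 had the highest values, with Sdf2 (0.85), Psme2b (0.84) and Coasy (0.83), and opposite it D3Ertd254e (-0.76), Fbxl20 (-0.76) and Abcc9 (-0.75). Without BXD32 and BXD43 these 6 lay between 0.64 and 0.69 and between -0.57 and -0.45. For S100b they were Esyt1 (0.73), the secreted phosphoprotein gene Spp1 (0.73) and Psmd12 (0.71), opposite Hpcal4 (-0.76), Cdk5r1 (-0.72) and Sprn (-0.70), and without those libraries Esyt1 had 0.48, Spp1 0.49 and Psmd12 0.56.

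Markers of other cell types and of neighbouring brain regions moved with the members in 12 of 84 relations tested (7 genes by 12 lists, permutation test, adjusted p under 0.05 over the 84). How often other genes would pass against these lists was not computed, so the count is not shown to be particular to the members. The 3 of these relations that held without BXD32 and BXD43 involved the glutamate transporters. Slc1a2 was lower in lines with more of 18 genes of hypothalamic identity, led by Pmch and Sst (r = -0.62, rho -0.65, permutation p = 4e-05, adjusted p = 0.00336, r = -0.55 without the 2 farthest lines), and r was -0.58 without BXD32 and BXD43 (permutation, adjusted p = 0.0197) and -0.46 after the GC tilt (permutation, adjusted p = 0.0666). Slc1a2 also rose with 10 tanycyte markers, led by Col25a1 and Vcan, which precursors of oligodendrocytes also express (r = 0.50, rho 0.40, permutation p = 0.00205, adjusted p = 0.0287, r = 0.32 without the 2 farthest lines), with r = 0.54 without BXD32 and BXD43 (permutation, adjusted p = 0.0197) and 0.39 after the GC tilt (permutation, adjusted p = 0.107). Slc1a3 was lower in lines with more myelin (r = -0.57, rho -0.63, permutation p = 0.00039, adjusted p = 0.0164, r = -0.63 without the 2 farthest lines), with r = -0.54 without BXD32 and BXD43 (permutation, adjusted p = 0.0197) and -0.66 after the GC tilt (permutation, adjusted p = 0.00168).

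Gfap was higher in lines with more hypothalamic identity genes (r = 0.52, rho 0.45, permutation p = 0.00129, adjusted p = 0.0287, r = 0.38 without the 2 farthest lines) and lower in lines with more of 14 neuronal markers, led by Snap25 and Syt1 (r = -0.50, rho -0.48, permutation p = 0.00175, adjusted p = 0.0287, r = -0.42 without the 2 farthest lines). Without BXD32 and BXD43 these were 0.46 and -0.43, with adjusted permutation p = 0.0767 and 0.0882, and after the GC tilt 0.45 and -0.52, with adjusted permutation p = 0.0666 and 0.0458. In their absence 2 other relations passed, Gfap with 8 thalamic markers (r = -0.52, permutation, adjusted p = 0.0234, against -0.36 and 0.129 over all lines) and S100b with hypothalamic identity (r = 0.55, permutation, adjusted p = 0.0197, against 0.20 and 0.432). The hypothalamic identity sum ran from 472 to 1115 CPM over the lines and the neuronal sum from 8079 to 10209 CPM. How far the dissected region set these relations was not tested.

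The other calls involved Aldh1l1, Gja1 and S100b, and each was lost without BXD32 and BXD43. Aldh1l1 fell with choroid plexus markers (r = -0.63, rho -0.25, permutation p = 0.00284, adjusted p = 0.0288), where Gja1 rose (r = 0.54, rho 0.27, permutation p = 0.00309, adjusted p = 0.0288), and S100b rose with myelin (r = 0.52, rho 0.33, permutation p = 0.00173, adjusted p = 0.0287). S100b itself is also expressed by oligodendrocytes. Without the 2 lines farthest from the list's median these were -0.22, 0.16 and 0.22, and without BXD32 and BXD43 -0.25, 0.28 and 0.29. After the GC tilt they were -0.50, 0.37 and 0.52, with adjusted permutation p = 0.0673, 0.121 and 0.0484. Aldh1l1 also rose with hypothalamic identity (r = 0.48), ependymal (0.48) and microglial markers (0.47), and Gja1 fell with microglial markers (-0.47), with adjusted permutation p from 0.0288 to 0.0314, rho of 0.40, 0.36, 0.30 and -0.35, and r of 0.52, 0.38, 0.30 and -0.31 without the 2 farthest lines.

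The parental strains were compared with 1 library each, so the errors given cover counting only. C57BL/6J had 81.1 CPM of Aldh1l1, more than 35 of the 36 BXD lines, and DBA/2J had 71.0, a difference of 0.19 log2 units (counting SE 0.046). For Gja1 the order was opposite: C57BL/6J had 289.9 CPM, more than only 3 BXD lines, and DBA/2J 329.9, a difference of -0.19 (counting SE 0.023). Gfap stood at 204 CPM in C57BL/6J and 168 in DBA/2J, a difference of 0.28 (counting SE 0.03). Aqp4 (161 and 150 CPM, 0.10), S100b (143 and 133 CPM, 0.10), Slc1a2 (1851 and 1813 CPM, 0.03) and Slc1a3 (848 and 843 CPM, 0.01) differed less. No member reached 1 log2 unit, which 0.649% of 12166 genes did. A typical pair of BXD lines differed by 0.36 in Gfap, 0.15 in Aldh1l1 and 0.10 in Gja1 (median over 630 pairs). The parents differed less than 60.5% of these pairs in Gfap, 35.7% in Aldh1l1 and 23.2% in Gja1. Each of these parental differences was thus within what pairs of lines show.

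Gfap ranged beyond both parents: 14 of the 36 lines lay above C57BL/6J and 10 below DBA/2J. This was not particular to Gfap. The numbers were 18 and 16 for Slc1a2, 18 and 17 for Slc1a3, 10 and 10 for S100b, 30 and 4 for Aqp4, and 1 and 19 for Aldh1l1. For Gja1, where DBA/2J was the higher parent, 11 lines lay above DBA/2J and 3 below C57BL/6J. Both hybrids lay between the parents in Gja1 and S100b. In Slc1a2 (parents 1851 and 1813 CPM) and Aldh1l1 (81.1 and 71.0 CPM) both lay below the parents, and in Slc1a3 (848 and 843 CPM) above them. In Gfap and Aqp4 B6D2F1 lay between the parents. D2B6F1 was level with C57BL/6J in Gfap and above both parents in Aqp4 (161 and 150 CPM). Gfap was 172 CPM in B6D2F1 and 204 in D2B6F1 (-0.25 log2 units, counting SE 0.028), and Aqp4 156 and 174 CPM (-0.16, counting SE 0.029). Slc1a2 (1769 and 1683 CPM), Slc1a3 (851 and 893 CPM) and S100b (139 and 136 CPM) differed by 0.07, -0.07 and 0.03. Aldh1l1 (69.5 and 69.6 CPM) and Gja1 (329 and 329 CPM) were the same within counting error. No member reached 0.5 log2 units, which 0.8% of 12126 genes did.

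No member passed a test between groups of strains. Between the 36 BXD lines and the other 4 libraries, 0 of 16198 genes (0%) passed an adjusted p of 0.05 with edgeR's quasi-likelihood test, 163 had an unadjusted p under 0.05, and DESeq2 called 0 with 155 unadjusted. Aqp4 averaged 178 ± 25.8 CPM in the lines (SD, n = 36) and 160.4 ± 10.3 in the others (SD, n = 4), a difference of 0.16 log2 units within 2 SE of -0.05 to 0.36 (edgeR, adjusted p = 1.0). The others lay between -0.06 for Aldh1l1 (SE 0.081) and 0.10 for Gfap (SE 0.20). Of 35 other astrocyte genes 19 were higher and 16 lower, of 19 partners 13 and 6, and of 28 reactive genes 20 and 8, and none of the 82 passed, where 52.0% of all genes were higher.

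For the 2 hybrids against the 38 inbred libraries, 0 of 16434 genes (0%) passed with edgeR, 109 had an unadjusted p under 0.05, and DESeq2 called 0 with 100 unadjusted. Slc1a2 averaged 1726 ± 60.5 CPM (SD, n = 2) against 1864 ± 218 (SD, n = 38), a difference of -0.11 within 2 SE of -0.34 to 0.12 (edgeR, adjusted p = 1.0). Gfap had the widest interval, from -0.64 to 0.47, so a change of that size was not detectable.

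No member passed the test for following Fgf15, the gene named in the study's title. In the regression of each gene on log2 Fgf15 over the 36 lines, 1 of 15836 genes (0.00631%) passed with edgeR, and it was not a member. Slopes of the 7 lay between -0.01 for Aldh1l1 (SE 0.032) and 0.04 for Gfap (SE 0.08), as the log2 change for a doubling of Fgf15, with adjusted p from 0.988 to 0.998 by edgeR. For Gja1 the slope was 0.001, within 2 SE of -0.05 to 0.05, and for Gfap within -0.12 to 0.2. Of the other astrocyte genes 25 had a positive and 10 a negative slope, of the partners 8 and 11, and of the reactive genes 20 and 6, where 49.9% of all genes had a positive one, and none of these list genes passed. Hepacam, a glial adhesion protein, had the smallest p of the partners (slope 0.04, SE 0.016, adjusted p = 0.912 by edgeR), and Emp1 that of the reactive genes (slope 0.19, SE 0.073, adjusted p = 0.912 by edgeR).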

How the data were processed

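Total RNA of hypothalamus was made into stranded mRNA libraries and sequenced as 100-base single-end reads with 40 M planned per library, per the labels' protocols. TopHat2 2.0.8, HTSeq 0.5.4p3, DESeq and the build mm9 are named in the submitters' processing notes, with no role or setting. The deposited raw table holds read counts of 23955 genes, not normalized, of which 2649 are 0 in all libraries. Whether counting used strand is not given in the sources used here. The deposited normalized table holds a signal, gene values scaled by the authors per library, for 15251 genes, and served only for alternatives, as log2(value + 1) with limma, because whole reads could not be recovered from all of its columns.

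Counts were scaled by TMM in edgeR 4.0.16 (R 4.3.3), with a prior count of 2 in log2 CPM. Genes were kept by filterByExpr, and edgeR's robust quasi-likelihood test was run over all of them with Benjamini-Hochberg adjustment at 0.05. DESeq2 1.42.0 and limma 3.58.1 gave alternatives. The edgeR test was tried on simulated data, and the DESeq2 and limma alternatives were not. Correlations used 100000 permutations, two-sided. A cell type list entered correlations as the mean of its standardised log2 CPM. With no repeat library, p-values measure the spread between strains. Transcript length, GC content and chromosome came from GENCODE vM21 on GRCm38, and GC content was found for 93.8% of genes with at least 5 CPM. No gene coordinates are given for the files' own build. The members, lists and tests were chosen with earlier results of these data known. The genes named were the 7 members, the 3 highest and 3 lowest correlated with each, 13 chosen astrocyte genes, the 3 smallest p of each astrocyte list per test and the 2 most abundant genes of other lists. Further genes of these lists were named after their values were seen, and a few that the rule names are not reported here.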

Additional observations from a re-analysis of the deposited data

How the results depend on the processing

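No paired analysis was possible because strains were sequenced 1 time each, so nothing links a sample of a group to a sample of the next. Leaving out BXD32 and BXD43 and removing the GC tilt were chosen after seeing the data. The 4 related pairs of members became 1 with Spearman's rho, 1 without BXD32 and BXD43, 1 after the GC tilt and 1 with both changes, under which Aldh1l1 with Gja1 turned to r = 0.065. With both changes the related pair was Gfap with Aqp4, elsewhere Aqp4 with Gja1. The 12 relations with marker lists became 2 with Spearman's rho, 5 without BXD32 and BXD43 (3 of them among the 12) and 3 after the GC tilt. The median SD of the 7 genes, 0.172, became 0.126 without BXD32 and BXD43 and 0.146 after the GC tilt. The cause was not tested. Genes called for the BXD lines against the 4 other libraries went from 0 to 1 without BXD32 and BXD43, and for the hybrids from 0 to 1 without them, while leaving out each hybrid in turn gave 0 without B6D2F1 and 1 without D2B6F1. The 1 gene called on the Fgf15 slope became 4 with no filter, 3 in the normalized table and 2 without BXD32 and BXD43. No member was called in any of these fits. Differences near 0 changed sign: in the BXD comparison Gja1 was -0.022 without C57BL/6J and S100b -0.0034 without BXD32 and BXD43, and for the hybrids Gfap was 0.036 without B6D2F1 and -0.21 without D2B6F1. Slc1a3 for the hybrids was 0.0018 with no filter, 0.0042 in the normalized table, 0.0094 without BXD32 and BXD43, 0.038 without B6D2F1 and -0.035 without D2B6F1. Its Fgf15 slope was 0.018 without BXD32 and BXD43 and 0.012 without the 2 lines farthest in Fgf15. Counting error was small beside the spread between lines. As a root mean square over the lines it was largest for Aldh1l1, at 0.037 log2 units against an SD of 0.175. Few neighbouring strains were separated by counting even so, and the number of strains limits every comparison.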

Other observations

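Many genes alike with Gfap lay on its own chromosome, a pattern noticed after seeing the data and not tested. Of the 97 genes with a known chromosome and r of at least 0.5 with Gfap over the 36 BXD lines, 24 (24.7%) lie on chromosome 11, which holds 8.1% of all 11266 such genes. Without BXD32 and BXD43 this was 9 of 59 (15.3%), and after the GC tilt 10 of 71 (14.1%). Those 24 genes include Senp3 (r = 0.66), Doc2b (0.64), Mrc2 (0.60) and Wipf2 (0.60), each still at 0.50 or higher in both alternatives. This is not particular to Gfap: for Aldh1l1, a chromosome 6 gene, chromosome 11 held 233 of 1934 such genes (12%) over the 36 lines and 30 of 186 (16.1%) without BXD32 and BXD43, a larger share than for Gfap there. Over all 36 lines it held between 6.04% and 8.71% of those alike with the other 5 members. Over the 36 lines the share of genes on the member's own chromosome lay, for the other members, between 1.99% for Slc1a3 on chromosome 15, where 4.09% of all genes lie, and 7.74% for Slc1a2 on chromosome 2, where 8.05% lie. After the GC tilt it was 15.3% for Slc1a2, above the value for Gfap. In recombinant inbred lines, neighbouring stretches of a chromosome are inherited together. The genotypes of the lines were not used here.

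Stat3, also on chromosome 11 and known as a regulator of Gfap in reactive astrocytes, averaged 94.0 ± 7.97 CPM (SD, n = 36). It was singled out after its value was seen. Its r was 0.52 with Gfap and -0.53 with Slc1a2, and it was 0.47 and -0.48 without BXD32 and BXD43 and 0.48 and -0.45 after the GC tilt. With Slc1a3, whose promoter window also holds the STAT pattern, r was -0.22.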
